A study of Mus musculus with 4 samples.

Results

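The E2F family of transcription factors was measured by every array probe annotated to E2f1, E2f2, E2f3, E2f4, E2f5, E2f6, E2f7 or E2f8. All 8 genes were on the array, with 17 of its 41174 non-control probes, 7 for the 3 activator members E2f1 to E2f3 and 10 for the 5 repressor members E2f4 to E2f8. Total RNA of 2 B-cell lymphoma lines, set up separately from mice transgenic for the dopamine receptor 3 gene, was compared with that of 2 control samples of spleen cells positive for B220, a surface form of CD45 used to select B cells. Animals of both groups were female C57BL/6N mice. Each line and each control sample was read on 1 one-colour Agilent array after Cy3 labelling of 0.2 µg RNA. The promoter driving the transgene, the ages, the clonality of the lines and whether animals were pooled are not given in the sources used here.

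E2F proteins bind DNA through a winged-helix domain and switch on the genes of S-phase entry when the retinoblastoma (pocket) proteins release them. E2f1, E2f2 and E2f3 are classed as activators. E2f4 and E2f5 act mainly as repressors together with pocket proteins, E2f6 represses with Polycomb-type complexes without a pocket protein, and E2f7 and E2f8 repress without a DP partner and dampen E2f1 output late in S phase. In resting B cells the repressor complexes prevail, and antigen or mitogen stimulation raises the activators as the cells enter the cycle.

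Several E2F genes are themselves known E2F targets. Sequences around their annotated starts are therefore shown with matches to TTTNNCGC, a loose form of the E2F site, searched on both strands. Windows run from 250 bases before to 50 bases after the annotated start and come from RefSeq on GRCm38.p6, in which 6 of the 8 members matched with 8 windows, all but E2f4 and E2f5. The motif stood in 3 of these 8 windows, against 5.17% of all 32851 windows of this length and 15 of 37 windows (40.5%) of the G1/S target list used below. The stricter forms TTTCCCGC and TTTGGCGC stood in 1.07% and 0.514% of all windows and in 8.11% and 21.6% of those of the G1/S list. The 3 windows with a match to TTTNNCGC are printed, with the motif in capitals. For E2f1, the member with the largest difference between the groups, a window at an internal start is printed too. The printed windows lie at chr4:136172024-136172323 (plus strand, E2f2), chr13:29986014-29986313 (minus strand, E2f3), chr10:110745189-110745488 (plus strand, E2f7) and chr2:154569377-154569676 (minus strand, E2f1).
E2f2: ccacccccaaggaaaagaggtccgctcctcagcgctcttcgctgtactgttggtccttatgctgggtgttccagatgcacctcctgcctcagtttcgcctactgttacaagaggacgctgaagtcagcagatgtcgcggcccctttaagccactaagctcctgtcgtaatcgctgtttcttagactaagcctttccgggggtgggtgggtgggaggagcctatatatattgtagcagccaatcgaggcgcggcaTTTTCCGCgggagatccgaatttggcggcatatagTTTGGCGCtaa
E2f3: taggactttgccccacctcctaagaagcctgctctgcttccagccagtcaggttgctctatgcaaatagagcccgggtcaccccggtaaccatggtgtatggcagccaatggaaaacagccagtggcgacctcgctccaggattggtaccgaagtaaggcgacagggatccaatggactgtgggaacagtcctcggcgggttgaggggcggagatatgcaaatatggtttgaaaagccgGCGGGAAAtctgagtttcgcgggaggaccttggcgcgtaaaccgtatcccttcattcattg
E2f7: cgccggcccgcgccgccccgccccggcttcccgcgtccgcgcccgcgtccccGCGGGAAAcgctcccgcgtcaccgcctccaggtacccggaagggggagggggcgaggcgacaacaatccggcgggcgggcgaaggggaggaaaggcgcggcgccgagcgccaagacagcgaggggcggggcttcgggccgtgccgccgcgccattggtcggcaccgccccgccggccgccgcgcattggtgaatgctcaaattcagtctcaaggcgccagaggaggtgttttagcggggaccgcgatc
E2f1: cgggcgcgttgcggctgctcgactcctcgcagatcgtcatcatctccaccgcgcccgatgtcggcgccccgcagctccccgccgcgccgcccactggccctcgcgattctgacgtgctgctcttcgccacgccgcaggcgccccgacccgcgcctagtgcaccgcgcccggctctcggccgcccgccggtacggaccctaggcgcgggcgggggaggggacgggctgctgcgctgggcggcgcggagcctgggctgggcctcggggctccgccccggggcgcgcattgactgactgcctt
In the E2f2 window TTTTCCGC, a match to the loose form only, began 4 bases after the start, and TTTGGCGC 39 bases after it. The E2f3 and E2f7 windows carried TTTCCCGC on the opposite strand, which appears in the printed strand as GCGGGAAA, at 11 and 198 bases before the start. No copy of these letters was in the window of E2f1, E2f6 or E2f8 or in the second windows of E2f2 and E2f3. The bases before the E2f1 start include E2f1 coding sequence, so this start lies inside the gene. The main E2f1 promoter was not searched, and whether it holds E2F sites was not tested. Bases before the second E2f2 start include coding sequence of that gene too.

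Signals are given as log2 processed intensity relative to the 75th percentile of the same array, so that 0 is the brightness of that percentile. The 75th percentile was 1122 and 1315 intensity units in the lymphoma lines and 1078 and 514 in the splenocytes, so splenocyte sample 2 was the dimmest array. Between 24974 and 27319 probes an array were well above background, and no spot was saturated. Drd3, the gene of the transgene, was well above background in the 2 lines but in no splenocyte sample. Its fitted log2 difference of 0.75 ± 0.26 (SE) was not called by limma (adjusted p = 0.0613). As the probe was dim in both splenocyte samples, this value does not measure the size of the difference. All 8 B-cell markers, among them Cd79a and Ms4a1, were well above background on all 4 arrays, and 5 of them were lower in the lines. The lines and the splenocytes differ at once in transformation, genotype and growth as a line, which cannot be told apart here. Nor can fewer cells of a type be told apart from less RNA per cell. The lines were set up separately, but nothing in the labels says whether the samples of a group came from separate animals. The p-values therefore measure the spread between these samples only, which for the splenocytes may be technical.

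E2F family transcripts were for the most part higher in the lymphoma lines: E2f1, E2f6, E2f7 and E2f8 were higher on every tested probe, E2f4 was higher by a smaller amount, and E2f5 was lower on both of its tested probes. The second E2f8 probe was dim, lies on the strand opposite to the gene and lost its call under normexp background correction. Of the 17 probes, 14 were well above background on at least 2 arrays and were tested. In limma's fit over all 27404 tested probes, called at an adjusted p under 0.05, 9 of the 14 were higher, where 32.3% of all probes were called higher. A further 2 were lower, where 32.5% of all probes were called lower, and 3 were not called. Calls in either direction covered 64.8% of all probes, so a call is in itself not particular to the family. The median log2 difference of the family probes was 1.17, against −0.01 over all tested probes.

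The plot of the 14 probes by array shows each value. For 11 probes both lines lay above both splenocyte samples (42.7% of all probes) and for 2 both lay below (42.9% of all probes). That makes 13 of 14 probes whose groups did not overlap, where 85.6% of all probes had none, and the groups overlapped for 1 E2f3 probe.

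**Figure D1:**
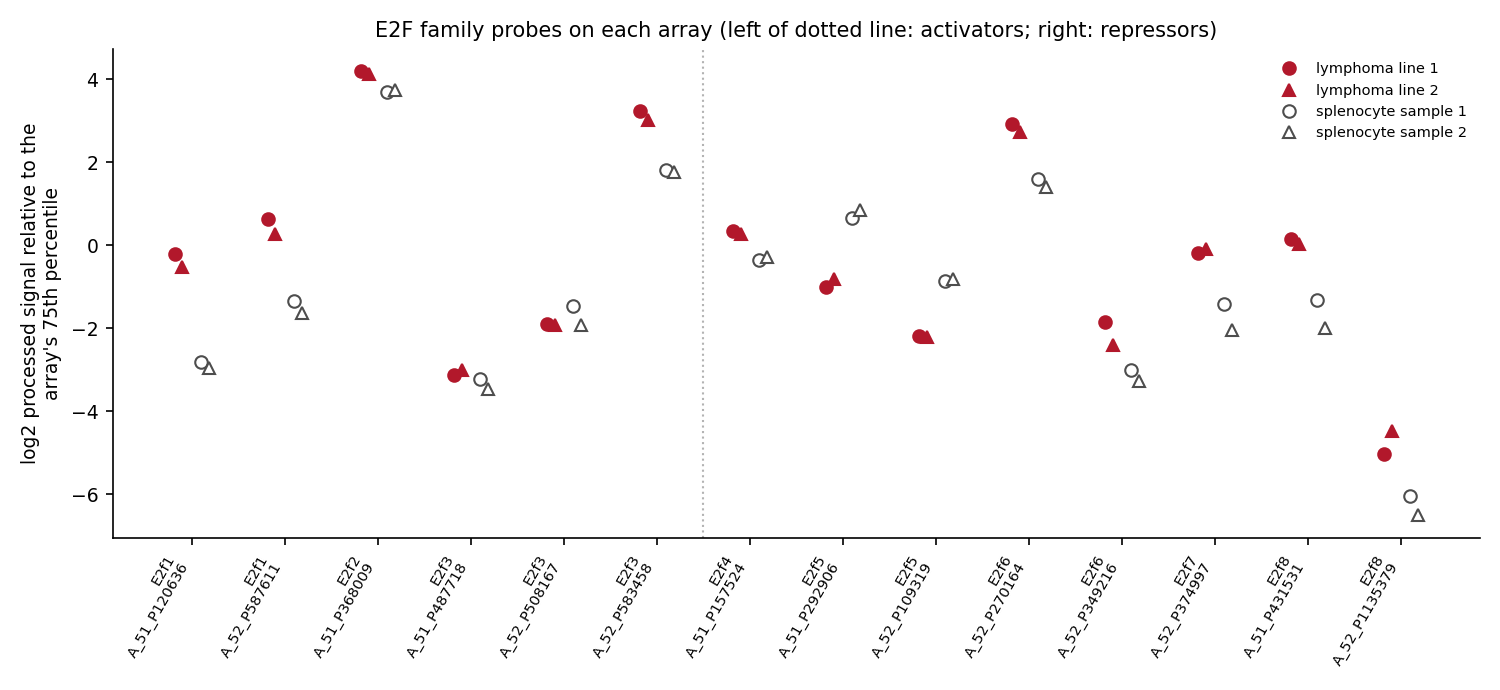
Log2 processed signal relative to the 75th percentile of the array (vertical axis) of the 14 tested E2F probes, with lymphoma lines as filled red symbols and splenocyte samples as open symbols to their right. Activators stand left of the dotted line and repressors right of it, and only the E2f5 probes have both lines below both splenocyte samples.

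Set by class, the 6 tested activator probes had a median log2 difference of 0.88, with 3 called higher, none lower and 3 not called. Their differences ran from −0.22 to 2.51. The 8 tested repressor probes had a median of 1.17, with 6 called higher and 2 lower, and ran from −1.66 to 1.74. The classes were not tested against each other. Higher was the more frequent call in both, but 3 of the 6 activator probes had no call. Among the activators only E2f1 was called higher on every tested probe. The share of calls that were higher depends on how arrays are scaled: 49.9% of all called probes were higher in the lines as reported and 64.0% when arrays were centred on their median. That centring moved the median of all probes by 0.41, and under it 11 E2F probes were called higher and 2 lower.

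**Figure D2:**
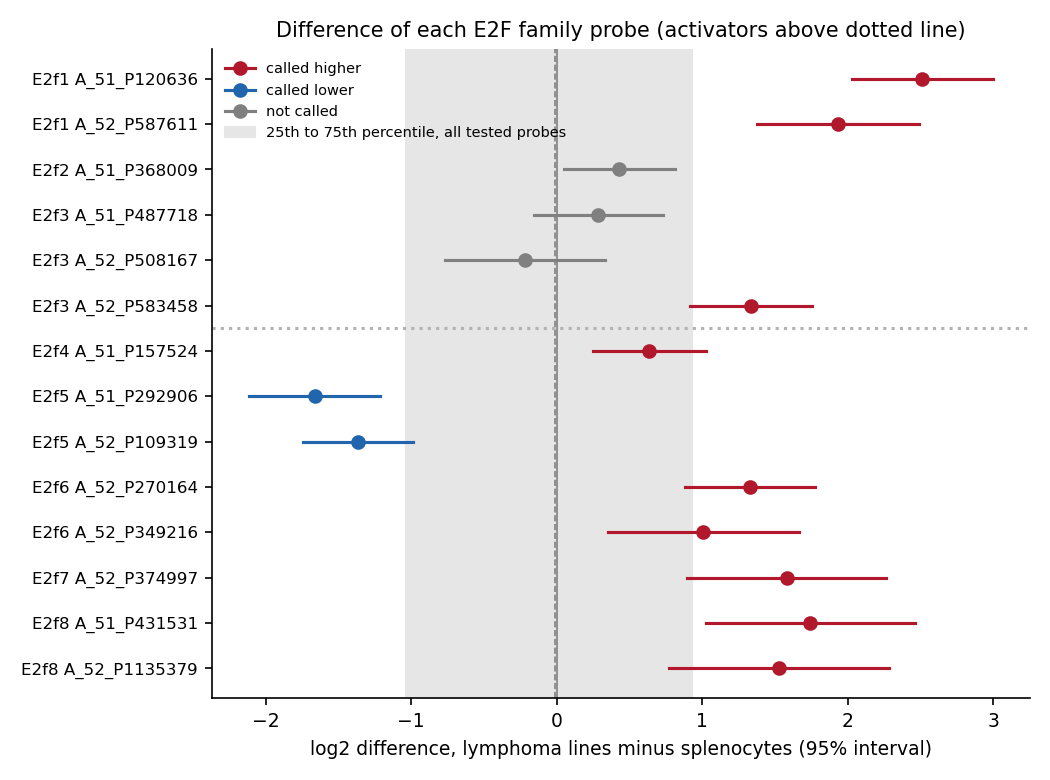
Log2 difference, lymphoma lines minus splenocytes, with its 95% interval for each tested E2F probe. The grey band spans the 25th to 75th percentile of all tested probes and the dotted line parts activators from repressors; the points of both E2f1 probes lie to the right of the band and those of both E2f5 probes to the left of it.

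E2f1, the activator most closely tied to S-phase entry and to E2F-driven apoptosis, showed the largest difference of the family. Probe A_51_P120636 (NM_007891, chr2:154251447-154251506 in mm8, minus strand) read −0.21 and −0.53 in the lines, against −2.82 and −2.95 in the splenocytes. The difference was 2.51 ± 0.18 (SE, 95% interval 2.03 to 3.00), a 5.71-fold higher signal in the lines (limma adjusted p = 0.000794). A second probe for the gene, A_52_P587611 (chr2:154251709-154251768), read 0.63 and 0.28 in the lines, against −1.33 and −1.63 in the splenocytes. Its difference of 1.93 ± 0.21 gave a 3.82-fold higher signal (limma adjusted p = 0.00203). On both probes the groups were far apart next to the gap between arrays of 1 group, which was at most 0.35.

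The array carries A_51_P120636 in 10 spots, which gives the noise between spots of 1 hybridization. The 10 spots averaged 969 and 912 intensity units in the lines, against 153 and 66.7 in the splenocytes. The coefficient of variation over spots was 3.20% and 3.38% in the lines and 4.47% and 4.15% in the splenocytes. On the log2 scale the spots of an array had an SD of 0.046 and 0.048 in the lines and of 0.066 and 0.060 in the splenocytes. The spots of an array share 1 RNA and 1 labelling, so this spread leaves out the noise between arrays.

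**Figure D3:**
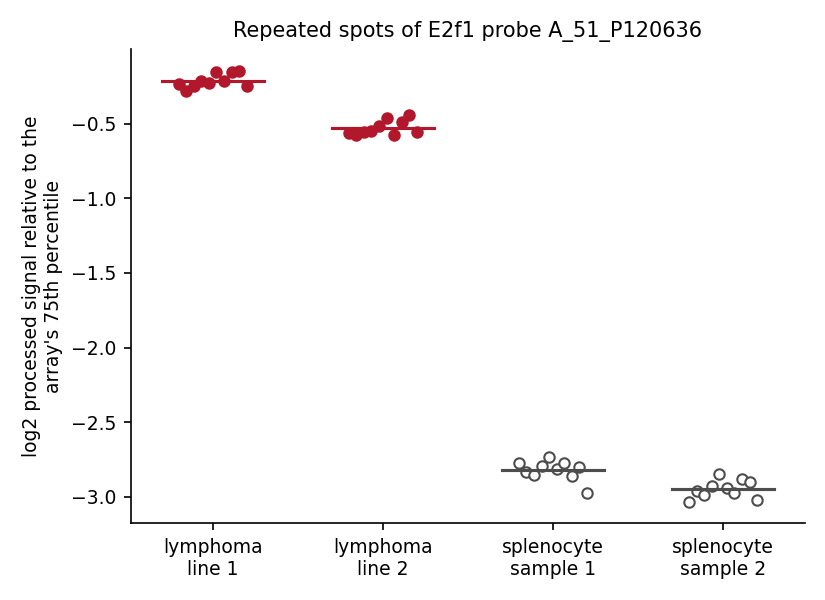
Each of the 10 spots of E2f1 probe A_51_P120636 on each array, as log2 processed signal relative to the 75th percentile of the array, with the array mean as a bar. Spots of the lymphoma lines lie between −0.58 and −0.15 and those of the splenocytes between −3.03 and −2.73.

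E2f2, an activator with known roles in lymphoid and erythroid cells, was not called. Its only probe, A_51_P368009 (NM_177733, chr4:135466723-135466782, plus strand), read 4.19 and 4.12 in the lines, against 3.70 and 3.75 in the splenocytes. Both lines lay above both splenocyte samples. The difference of 0.43 ± 0.14 (95% interval 0.05 to 0.81) had a limma adjusted p of 0.0529, and this p ranged between 0.0117 and 0.227 over the alternatives. The strongest of these was centring on the median, where the difference was 0.84, or 0.44 above the median of all probes.

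E2f3, whose locus makes the isoforms E2f3a and E2f3b from separate promoters, gave a different answer by probe. Probe A_52_P583458 (BC059262, chr13:29914076-29914135, minus strand) read 3.23 and 3.02 in the lines, against 1.81 and 1.77 in the splenocytes. Its difference of 1.34 ± 0.16 was a 2.53-fold rise (limma adjusted p = 0.00258). Probe A_52_P508167, placed by NM_010093 at chr13:29917581-29918667, read −1.90 and −1.92 in the lines, against −1.47 and −1.92 in the splenocytes, and the groups overlapped. Its difference was −0.22 ± 0.21 (95% interval −0.77 to 0.33, limma adjusted p = 0.396). Probe A_51_P487718, placed by the same transcript at chr13:29920965-29924351, read −3.12 and −3.00 in the lines, against −3.23 and −3.46 in the splenocytes, a difference of 0.29 ± 0.17 (95% interval −0.16 to 0.73, limma adjusted p = 0.194).

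The probe intervals of these last probes span 1087 and 3387 bases of the genome, longer than a probe, as for a probe set across an intron. On each array the ratio of A_52_P583458 to A_52_P508167 was 5.13 and 4.94 on the log2 scale in the lines, against 3.28 and 3.69 in the splenocytes, so these E2f3 probes did not change equally. The spread of 1.56 between the E2f3 probe differences compares with a median spread of 0.83 over the 6230 gene names with several tested probes, and with 2.87 at their 90th percentile. Which E2f3 transcripts the probes detect was not tested, since probe sequences were not used here.

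E2f4, the most abundant repressor E2F of resting cells in many tissues, was modestly higher. Its probe A_51_P157524 (NM_148952, chr8:108194385-108194444, plus strand) read 0.35 and 0.27 in the lines, against −0.36 and −0.28 in the splenocytes. The difference of 0.64 ± 0.14 (95% interval 0.25 to 1.02) was a 1.55-fold rise (limma adjusted p = 0.0177). Without 1 splenocyte sample the spread comes from the lines and the prior, and the remaining sample is assumed to vary like them. In such fits the difference was 0.60 without splenocyte sample 1 (adjusted p = 0.108) and 0.68 without splenocyte sample 2 (adjusted p = 0.0846), so the size stayed and the call did not. The call was also lost when dim probes were not filtered out (adjusted p = 0.0582).

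E2f5, the other pocket-protein-bound repressor, was the 1 member of the family that fell. Probe A_51_P292906 (X86925, chr3:14582708-14582770, plus strand) read −1.01 and −0.80 in the lines, against 0.66 and 0.85 in the splenocytes. Its signal was 3.17-fold lower in the lines, with a log2 difference of −1.66 ± 0.17 (limma adjusted p = 0.00175). Probe A_52_P109319 (NM_007892, chr3:14582420-14582479) read −2.18 and −2.22 in the lines, against −0.86 and −0.80 in the splenocytes. Here the signal was 2.58-fold lower (log2 difference −1.37 ± 0.14, limma adjusted p = 0.00186). Both probes had both lines below both splenocyte samples.

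E2f6, the repressor that works with Polycomb-type proteins, was higher on both probes. Probe A_52_P270164 (NM_033270, chr12:16852137-16852196, plus strand) read 2.93 and 2.73 in the lines, against 1.59 and 1.40 in the splenocytes, a 2.51-fold rise (log2 difference 1.33 ± 0.17, limma adjusted p = 0.00308). Probe A_52_P349216 (AK035116, chr12:16847160-16847219) read −1.86 and −2.40 in the lines, against −3.01 and −3.26 in the splenocytes. Its 2.01-fold rise (log2 difference 1.01 ± 0.24, limma adjusted p = 0.0217) lost its call under normexp background correction (adjusted p = 0.083), when dim probes were not filtered out (0.0528), without splenocyte sample 1 (0.0537) and without splenocyte sample 2 (0.098).

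The atypical repressors E2f7 and E2f8, which carry a duplicated DNA-binding domain and are made in S phase as E2F targets, both rose. E2f7 probe A_52_P374997 (NM_178609, chr10:110191207-110191266, plus strand) read −0.20 and −0.09 in the lines, against −1.41 and −2.03 in the splenocytes. The signal was 2.99-fold higher (log2 difference 1.58 ± 0.26, limma adjusted p = 0.00633). E2f8 probe A_51_P431531 (NM_001013368, chr7:48734673-48734732, minus strand) read 0.16 and 0.03 in the lines, against −1.31 and −1.98 in the splenocytes, a 3.35-fold rise (log2 difference 1.74 ± 0.27, limma adjusted p = 0.00551). On both genes splenocyte sample 2 lay well below sample 1, by 0.63 for E2f7 and 0.67 for E2f8.

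A second E2f8 probe, A_52_P1135379 (AK158295, chr7:48754530-48754589), lies 19797 bases away and on the plus strand, opposite to E2f8. It was dim: −5.02 and −4.47 in the lines, against −6.04 and −6.51 in the splenocytes, and not well above background in splenocyte sample 2. The fit gave a log2 difference of 1.53 ± 0.28 (limma adjusted p = 0.00944), or a 2.70-fold higher signal once splenocyte sample 2 was set at its detection limit. Under normexp the difference was −0.054 (adjusted p = 0.878), so its call depended on the background correction. Whether it reads E2f8 or a transcript from the other strand was not tested.

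The 3 remaining probes, A_52_P892297 for E2f3, A_52_P311718 for E2f5 and A_52_P607075 for E2f7, were not well above background on any of the 4 arrays. No level is therefore given for either group. Their processed signals were 1.73 to 8.55 intensity units in the lines and 1.57 to 10.4 in the splenocytes.

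Gaps between arrays of 1 group give the scale of these differences. Line 2 minus line 1 had a median of −0.08 over the 14 tested probes (range −0.54 to 0.56, 10 of 14 below 0), where the median absolute gap over all probes was 0.23 and the 95th percentile 1.1. Splenocyte sample 2 minus sample 1 had a median of −0.21 (range −0.67 to 0.18, 10 of 14 below 0), with a median absolute gap over all probes of 0.16 and a 95th percentile of 0.88. With the sign kept, the median gap over all tested probes was −0.0036 in the lines and 0.0038 in the splenocytes. Splenocyte sample 2 was also lower in all 7 proliferation markers (median −0.49) and in 35 of the 38 G1/S genes (median −0.33). The part of that difference in the E2F values was not tested.

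E2f1 to E2f6 bind DNA as dimers with a DP protein, and both DP genes rose. In the lists that follow, each gene is read by its brightest tested probe, and over all gene names 30.7% were called higher and 32.7% lower. Tfdp1 read 4.06 and 3.67 in the lines, against 1.63 and 1.30 in the splenocytes, a 5.28-fold rise (log2 difference 2.40 ± 0.22, limma adjusted p = 0.00141), the same direction on 2 of 2 probes. Tfdp2 read 0.32 and −0.09 in the lines, against −1.87 and −1.78 in the splenocytes, a 3.83-fold rise on 3 of 3 probes (log2 difference 1.94 ± 0.20, limma adjusted p = 0.00176).

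The pocket proteins, which hold E2Fs in check, changed less and not in 1 direction. Rb1, the retinoblastoma gene, read 4.13 and 4.2 in the lines, against 3.68 and 3.61 in the splenocytes (1.44-fold higher, limma adjusted p = 0.0304, with its second probe not called). Rbl1, which encodes p107 and is itself an E2F target, was 1.58-fold higher (limma adjusted p = 0.0211). Rbl2, which encodes p130, the pocket protein of resting cells, read −0.79 and −0.33 in the lines, against 0.08 and 0.39 in the splenocytes, 1.73-fold lower on 2 of 2 probes (limma adjusted p = 0.0375). Leaving out 1 array, which leaves 1 group without a spread of its own, kept 0 or 1 of these 3 calls, although the log2 differences stayed at 0.49 to 0.56 for Rb1, 0.55 to 0.77 for Rbl1 and −1.02 to −0.56 for Rbl2. Keeping dim probes in the test left 0.

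Of the 7 genes of the MuvB and DREAM complexes, which repress cell-cycle genes in resting cells with E2f4 or activate them with B-Myb and FoxM1, 4 rose, 1 fell and 2 were not called. Foxm1, the mitotic activator, was 7.12-fold higher (log2 difference 2.83 ± 0.16, limma adjusted p = 0.000489). Mybl2, which encodes B-Myb, was 3.82-fold higher (log2 difference 1.93 ± 0.22, limma adjusted p = 0.00248). The MuvB core genes Lin9 and Lin54 were 2.42-fold and 2.33-fold higher, although 1 of 3 Lin9 probes was called lower and 1 of 2 Lin54 probes was not called. Lin52 was 1.87-fold lower (limma adjusted p = 0.00848), a call lost without splenocyte sample 2 (0.0592) and with arrays centred on the median (0.0816). Lin37 and Rbbp4 differed by −0.22 and −0.25 and were not called, and with arrays centred on the median they differed by 0.19 and 0.15. Of the 3 Rbbp4 probes tested, 1 was called lower.

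The 3 genes whose products control E2F protein turnover rose. Skp2, a ubiquitin-ligase subunit known to act on E2f1, read 0.14 and −0.13 in the lines, against −3.51 and −3.63 in the splenocytes, an 11.9-fold rise (log2 difference 3.58 ± 0.17, limma adjusted p = 0.000339) that was 5.91-fold under normexp background correction. Ccnf, which encodes cyclin F and targets activator E2Fs, was 8.48-fold higher (log2 difference 3.08 ± 0.24, limma adjusted p = 0.000975). Fzr1, the Cdh1 subunit of the anaphase-promoting complex, was 2.28-fold higher (log2 difference 1.19 ± 0.14, limma adjusted p = 0.0028).

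Known E2F targets of the G1/S transition were almost all higher: 35 of 38 rose, none fell and 3 were not called, with a median log2 difference of 1.96. Among the larger rises were Cdc45 (the replicative helicase, 10.8-fold), Ccna2 (cyclin A, 10.3-fold) and Cdc6 (origin licensing, 8.95-fold). Ccna2 read 4.76 and 4.61 in the lines, against 1.58 and 1.05 in the splenocytes. The licensing factor Cdt1 (−0.37, limma adjusted p = 0.121) and the histone mRNA-binding Slbp (0.41, limma adjusted p = 0.0952) were among those not called. Transcripts of this list also mark dividing cells, and all 7 proliferation markers, among them Mki67 and Top2a, rose too, with a median of 2.98. Their summed signal was 147 and 128 times the 75th percentile in the lines, against 33.5 and 24.3 times in the splenocytes, and the part of proliferation in the E2F differences was not tested.

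**Figure D4:**
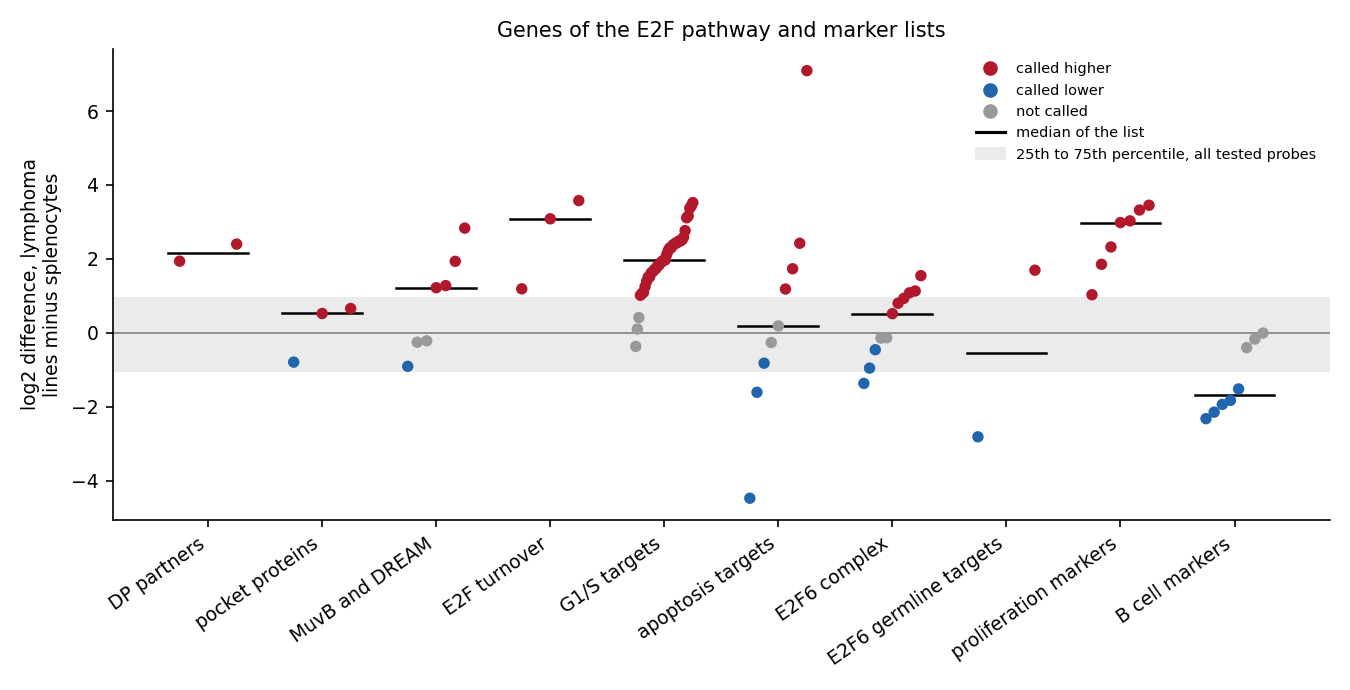
Log2 difference, lymphoma lines minus splenocytes, of every tested gene of each E2F pathway list and of the proliferation and B-cell marker lists, with the list median as a black bar and the 25th to 75th percentile of all tested probes in grey. Genes of the G1/S list lie almost all above the band, while the apoptosis list holds both the highest gene, Cdkn2a at 7.09, and the lowest, Pmaip1 at −4.47.

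Genes of the apoptosis list, described as E2f1 targets, went both ways: 4 rose, 3 fell and 2 were not called, with a median of 0.19. Cdkn2a, which encodes the tumour suppressors p16 and p19Arf, read 2.0 and 2.33 in the lines, against −5.01 and −4.86 in the splenocytes, a 136-fold rise (log2 difference 7.09 ± 0.19, limma adjusted p = 0.000127). Under normexp the Cdkn2a rise was 42.1-fold, and its probe was not in the test once probes with any flagged spot were removed, which left 6 calls among 8 genes of the list. Pmaip1, which encodes the BH3-only protein Noxa, read 0.36 and −0.54 in the lines, against 4.39 and 4.38 in the splenocytes, 22.2-fold lower (log2 difference −4.47 ± 0.33, limma adjusted p = 0.000853). The other BH3-only genes Bcl2l11 (Bim) and Bbc3 (Puma) were 5.36-fold and 3.33-fold higher, with Bcl2l11 at 2.65-fold under normexp and 3.14-fold with flagged spots kept. The caspase gene Casp8 was 1.77-fold lower. Its call was lost without splenocyte sample 1 (limma adjusted p = 0.053), without splenocyte sample 2 (0.0553) and with arrays centred on the median (0.0815).

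The E2f6 complex list holds 11 genes, those of a variant Polycomb repressor complex and the E2f6 partner Epc1. Of these, 6 rose, 3 fell and 2 were not called, with a median of 0.52. L3mbtl2, an MBT-domain subunit, was 2.92-fold higher, Wdr5, a WD-repeat subunit, 2.19-fold higher and Cbx3, the heterochromatin protein HP1γ, 2.12-fold higher. Max, which binds E-boxes with Mga in this complex and with Myc elsewhere, read 3.15 and 2.84 in the lines, against 4.35 and 4.38 in the splenocytes, 2.58-fold lower (limma adjusted p = 0.00329). Mga was 1.37-fold lower (limma adjusted p = 0.0423), with its second probe not called. Epc1, a chromatin-binding partner of E2f6, was 1.94-fold lower on 5 of 5 probes (limma adjusted p = 0.00551). The Mga call was lost without any 1 of the arrays and with arrays centred on the median (adjusted p up to 0.814), and that of Cbx3 without splenocyte sample 1 (0.0557). Leaving out either splenocyte sample cut the calls of this list to 5.

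Germline genes known to be repressed by E2f6 were mostly dim: of 4 on the array, 2 were tested. Tuba3a, a testis tubulin, was 3.24-fold higher, but tubulin genes are near-identical and its probe may read others. Stag3, a meiotic cohesin subunit, read −7.57 and −6.54 in the lines, against −3.84 and −4.65 in the splenocytes (limma adjusted p = 0.00667). Line 1 was not well above background. With that array set at its detection limit the signal was 6.53-fold lower in the lines, and under normexp it was 2.25-fold lower.

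Markers of other cell types that a B220 selection could leave behind moved beside these results. Of the T-cell markers 5 of 8 tested were lower, of the myeloid 6 of 7, of the NK-cell 4 of 5 and of the erythroid 3 of 4. In the same order, 2, 2, 2 and 1 of the lower markers were not well above background in either line. Summed over the list, T-cell markers ran at 6.40 and 7.76 times the 75th percentile in the lines and 6.92 and 5.08 in the splenocytes, and myeloid markers at 35.4 and 35.8 in the lines and 15.5 and 10.2 in the splenocytes. In the lines 1 gene makes up most of either sum: Cd3g holds 79.6% and 79.2% of the T-cell sum and Adgre1 99.7% and 99.8% of the myeloid sum. NK-cell markers summed to 0.569 and 0.432 in the lines and 1.42 and 1.40 in the splenocytes, and erythroid markers to 0.326 and 0.243 in the lines and 1.88 and 1.90 in the splenocytes. The rises among them were Cd3g (20.5-fold), Adgre1 (18.7-fold) and Prf1 (1.80-fold), named after their values were seen. Of the 5 plasma-cell markers 2 were higher, 1 lower and 2 not called. They summed to 9.51 and 28.5 in the lines and 45.4 and 64.8 in the splenocytes, where Jchain, itself not called (limma adjusted p = 0.0525), made up 91.7% and 92.1% of the sum. B-cell markers summed to 304 and 296 in the lines and 556 and 698 in the splenocytes, 5 of 8 lower with a median of −1.67. The part of these cells in the E2F results was not tested.

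Genes with the pattern most like that of E2f1 probe A_51_P120636 over the 4 arrays, by Euclidean distance between values centred on their own mean, were Slc35a4 (distance 0.0278), 2210418O10Rik (0.0359) and LOC626832 (0.0482). For E2f5 probe A_51_P292906 they were Rsrp1 (0.0315), Rufy2 (0.0340) and Trnau1ap (0.0459). With 4 arrays in 2 groups such nearness is a description only.

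The plot of alternatives shows how far each E2F difference moved with the processing. For 8 of the 14 probes, the direction and the call were the same under every alternative run.

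**Figure D5:**
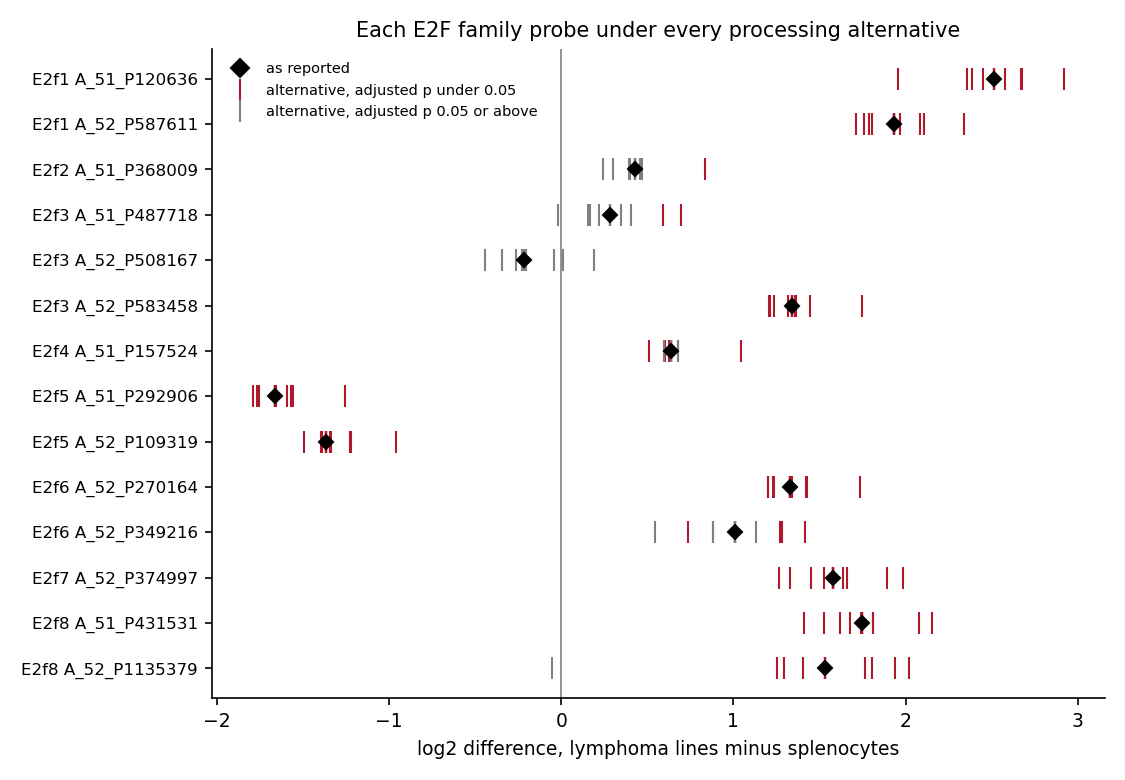
Log2 difference, lymphoma lines minus splenocytes, of each tested E2F probe as reported (black diamond) and under each alternative (ticks, red where called and grey where not). Both E2f1 and both E2f5 probes stay called on 1 side of 0, while 2 E2f3 probes and E2f8 probe A_52_P1135379 have ticks on both sides.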

How the data were processed

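Per the file headers, images were read with Agilent Feature Extraction 9.5.1.1 (9.5 per the submitters' processing notes), and probe positions are annotated on mm8. The deposited processed signal is an intensity, corrected for background within each array and not normalized between arrays, and the mean and background intensity of each spot are deposited too. The deposited table of values holds the same intensity multiplied array by array (by 0.961 and 0.820 for the lines, 1 and 2.10 for the splenocytes), as read from the values. Its medians are 41.6 and 46.1 for the lines and 58.7 and 57.5 for the splenocytes.

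From these, log2 processed signals were set against the 75th percentile of each array over its 43379 non-control spots. Outlier-flagged spots were dropped, which removed 153 probes, and the spots of a probe were averaged. A probe that 2 or more of the 4 arrays showed well above background was tested with limma 3.58.1 (lmFit, eBayes, two-sided) in R 4.3.3, with tables read by data.table (1.17.8). Benjamini-Hochberg adjustment ran over all 27404 tested probes, and 17755 were called at an adjusted p under 0.05. Arrays entered groups by their titles; replicate numbers were not taken to pair samples, as the deviations of same-numbered arrays correlated at 0.0113. The number of arrays limits the precision: in simulated data of 27404 probes, 0 of 67 probes changed 2-fold, 22 of 67 changed 4-fold (32.8%) and 56 of 66 changed 16-fold (84.8%) were called. So few probes were changed there that the adjusted threshold was stricter than in the data, so these shares are not the recall of this comparison.

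Named genes are all E2F probes, all members of the DP, pocket, MuvB and DREAM, and turnover lists, and in each other pathway list the 4 largest called differences among genes bright on all 4 arrays plus every called gene against the list's majority; a few genes under this rule are not reported here. Members and lists were chosen with earlier results of these data known. Gene names follow the array, updated through RefSeq accessions, which 24375 probes matched. Exon and UTR annotation of mm8 was not used here.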

Additional observations from a re-analysis of the deposited data

How the results depend on the processing

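Across the processing alternatives, 201 of 217 values of the 14 E2F probes kept their direction and side of the threshold, and 8 probes kept both under every alternative run. Among the 33 named pathway genes, 24 did so. Fitting 1 probe per gene name left 11583 calls in all and 7 calls among 8 E2F genes, through fewer probes tested. Leaving out 1 array, where the lone sample of a group is assumed to vary like the other group, gave 13162 to 17021 calls in all and 9 to 11 E2F calls, lowest without either splenocyte sample. The E2F6-complex calls ranged from 5 to 7, against 9 as reported, pocket-protein calls from 0 to 1, against 3, and plasma-marker calls from 2 to 5, against 3. With a replicate block there were 16749 calls in all and 11 in the E2F family, the calls of Rb1 (adjusted p = 0.0672) and Mga (0.0879) were lost and plasma-marker calls were 5, and the block changed no E2F call. Plasma-marker calls were also 5 under normexp, with only probes bright on all 4 arrays and with an intensity trend and robust prior. With no filter on dim probes pocket-protein calls were 0, and 16220 of 41021 probes (39.5%) were called. Requiring probes bright on all 4 arrays left 1 germline call (2 as reported), 3 myeloid calls (7) and 2 NK-cell calls (5), since fewer were tested. Directions turned for E2f3 A_51_P487718 (−0.017) and E2f8 A_52_P1135379 (−0.054) under normexp, for E2f3 A_52_P508167 with arrays centred on the median (0.19) and without splenocyte sample 1 (0.0086, in a range from −0.44), and for Lin37 (0.19) and Rbbp4 (0.15) with that centring. E2f3 A_51_P487718 became called under quantile normalization (0.59) and median centring (0.69), and E2f2 under median centring (adjusted p = 0.0117), brightness on all 4 arrays (0.039) and the robust prior (0.0193). The causes were not tested beyond those stated. A slide block was not run, as all 4 arrays share 1 slide. Normexp moved the median of all probes by −0.28 and quantile normalization by 0.15.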
